A study of Mus musculus with 120 samples.

Results

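Cux1, Cux2, Rorb, Scnn1a, Fezf2, Tle4, Foxp2, Tbr1 and Cplx3 are 9 genes widely used to tell the layers of the mouse cerebral cortex apart. They were taken by symbol from the deposited count tables, in which each matched 1 of 55573 genes, and they are described first in the cortex at both ages and then in the other brain regions. The study sequenced polyadenylated RNA from brain regions of C57BL/6J mice of both sexes at 10 and 26 weeks, with 4 mice per genotype and age and 5 regions from each mouse. Mice labelled 175Q carried 1 Atxn1 allele with an expanded CAG repeat beside an allele labelled 2Q, a knock-in model of spinocerebellar ataxia type 1 in which the expanded protein is made wherever Atxn1 is normally expressed. Mice labelled 175QK772T carried the same expanded allele with the K772T substitution in the nuclear localisation signal of ataxin-1, again beside 2Q, and WT mice carried no expanded allele. The fifth region beside cortex, hippocampus, striatum and cerebellum was the brainstem in 10-week mice and the medulla in 26-week mice.

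The neocortex is built of layers whose neurons differ in their targets and in the transcription factors they keep into adult life. Upper-layer neurons project within the cortex, layer 4 neurons receive thalamic input, layer 5 neurons project to the brainstem and spinal cord, and layer 6 neurons project back to the thalamus, while layer 6b holds surviving neurons of the embryonic subplate. Ataxin-1 binds the transcriptional repressor Capicua, and the expanded protein acts in the nucleus.

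On GRCm38, as the count tables place them, the upper-layer genes are Cux1 (ENSMUSG00000029705) at chr5:136248135-136567490, minus strand, and Cux2 (ENSMUSG00000042589) at chr5:121856366-122050102, minus strand. The layer 4 genes are Rorb (ENSMUSG00000036192) at chr19:18930605-19111196, minus strand, and Scnn1a (ENSMUSG00000030340) at chr6:125320659-125344943, plus strand, and the layer 5 gene is Fezf2 (ENSMUSG00000021743) at chr14:12342094-12348189, minus strand. The layer 6 genes are Tle4 (ENSMUSG00000024642) at chr19:14448150-14598051, minus strand, Foxp2 (ENSMUSG00000029563) at chr6:14901349-15441977, plus strand, and Tbr1 (ENSMUSG00000035033) at chr2:61802930-61814114, plus strand, and the layer 6b gene is Cplx3 (ENSMUSG00000039714) at chr9:57599992-57606281, minus strand. Counts cover the exons of each gene. Cux1 shares 394 exon bases with the antisense gene Gm16599, and the other 8 share none.

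Of the 24 cortex libraries, 23 entered the comparisons. The library labelled WT replicate 1 at 26 weeks, from a mouse labelled female, was left out. It held 291.5 CPM (counts per 1 M counts of the library, with trimmed-mean scaling between libraries) of the female-specific Xist and 70.7 CPM of the Y-linked Ddx3y, where the other females of that age had 1345 to 1861 CPM of Xist and 0 of Ddx3y and the males 72.3 to 110 CPM of Ddx3y. It also held 20.5 CPM of Tbr1, 269.6 CPM of Slc17a7 (the vesicular glutamate transporter of cortical neurons) and 2590 CPM of the choroid plexus gene Ttr, against Slc17a7 of 529 to 1106 CPM in the other 26-week cortex libraries. Among the libraries kept, Ttr reached 749.5 CPM in 175QK772T replicate 4 at 10 weeks and 612.2 CPM in 175Q replicate 1 at 26 weeks. Total counts were 72.9 M to 100.8 M read pairs per cortex library at 10 weeks and 28.03 M to 55.5 M at 26 weeks. The ages were prepared and sequenced as separate batches, so age and batch cannot be told apart, and every genotype comparison was made within an age. Atxn1 itself, whose repeat length counts cannot show, lay between 101.7 and 133.6 CPM in all 23 libraries. Its log2 fold change in cortex against WT was 0.10 ± 0.04 (SE) in 175Q and 0.20 ± 0.04 in 175QK772T at 10 weeks, both called, and 0.03 ± 0.06 (not called) and 0.18 ± 0.06 (called) at 26 weeks. A gene was called where edgeR's quasi-likelihood test, with sex as a term, gave a Benjamini-Hochberg adjusted p below 0.05 over all genes tested.

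In WT mice some of the 9 genes were highest in the cortex and others in another region. Of the 36 tests of WT cortex against each of the other 4 regions of the same mice, 28 were called higher in cortex at 10 weeks, where 28.9% of all such tests were, and 24 were called higher at 26 weeks, where 23.1% of all such tests were. Cux2, Rorb and Tbr1 had their highest level in cortex at both ages, without overlap with the next region. Levels here are CPM per kilobase of exon (written RPKM; mean ± SD, n = 4 mice, 3 for the 26-week cortex), so that genes can be set beside each other.

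Tbr1, a T-box transcription factor of corticothalamic neurons, was the most abundant of the 9 in WT cortex, at 26.8 ± 1.44 RPKM at 10 weeks and 25.6 ± 0.919 at 26 weeks. It followed in hippocampus at 8.73 ± 1.06 and 9.92 ± 0.891 RPKM and in striatum at 4.4 ± 1.52 and 8.23 ± 4.42 RPKM, and at 26 weeks the hippocampal and striatal values overlapped. Cerebellum, brainstem and medulla held less than 1 RPKM on average, though single WT cerebella at 26 weeks ran from 0.0838 to 1.67 RPKM. Cux2, a cut-like homeodomain factor of upper-layer neurons, had 17.9 ± 0.907 and 15.5 ± 1.55 RPKM in WT cortex at 10 and 26 weeks. Its other regions lay between averages of 3.06 and 5.56 RPKM, and most neighbours in that order overlapped. Rorb, a retinoid-related orphan receptor of layer 4, had 5.87 ± 1.13 and 4.59 ± 0.845 RPKM in WT cortex and averaged between 0.937 RPKM (cerebellum, 10 weeks) and 2.26 RPKM (striatum, 26 weeks) elsewhere.

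Cplx3, which encodes the vesicle-release protein complexin 3 and marks layer 6b, had 7.61 ± 1.07 and 7.31 ± 0.323 RPKM in WT cortex. The striatum came next at 5.48 ± 1.59 and 4.77 ± 2.01 RPKM, overlapping the cortex at 10 weeks, followed by the hippocampus at 2.94 ± 0.505 and 4.37 ± 0.89 RPKM, which overlapped the striatum at 26 weeks. Fezf2, the zinc-finger selector of layer 5 subcerebral neurons, had 10.9 ± 1.14 RPKM in cortex, below the 13.4 ± 1.03 RPKM in hippocampus at 10 weeks, and at 26 weeks overlapped between cortex (11.2 ± 2.03 RPKM) and hippocampus (10.99 ± 0.609 RPKM). No read pair of Fezf2 was counted in any of the 4 WT cerebella or 4 WT brainstems at 10 weeks, where 3 counts would have been 0.0318 to 0.0434 CPM. At 26 weeks the library labelled WT cerebellum replicate 1 had 47 Fezf2 counts, against 0 or 1 in the other WT cerebella. By its label it came from the same mouse as the left-out cortex library.

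Cux1, the paralog of Cux2, had 6.61 ± 0.635 and 5.66 ± 0.843 RPKM in cortex at 10 and 26 weeks, next below its highest level of 6.95 ± 0.194 and 7.63 ± 0.494 RPKM in cerebellum, with an overlap at 10 weeks only. Scnn1a, the alpha subunit of the epithelial sodium channel, whose regulatory sequence drives a layer 4 Cre line, had 1.49 ± 0.371 and 1.47 ± 0.363 RPKM in cortex, against 2.07 ± 0.204 and 2.83 ± 0.243 RPKM in hippocampus, its highest region. Tle4, a Groucho-family corepressor, and Foxp2, a forkhead factor, both mark layer 6 but were highest in striatum. Tle4 had 9.54 ± 0.568 and 10.6 ± 0.852 RPKM in cortex, against 15.9 ± 1.47 and 19.2 ± 2.99 in striatum. Foxp2 had 0.796 ± 0.118 and 0.863 ± 0.149 RPKM in cortex, against 4.399 ± 0.311 and 4.45 ± 1.17 in striatum.

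**Figure D1:**
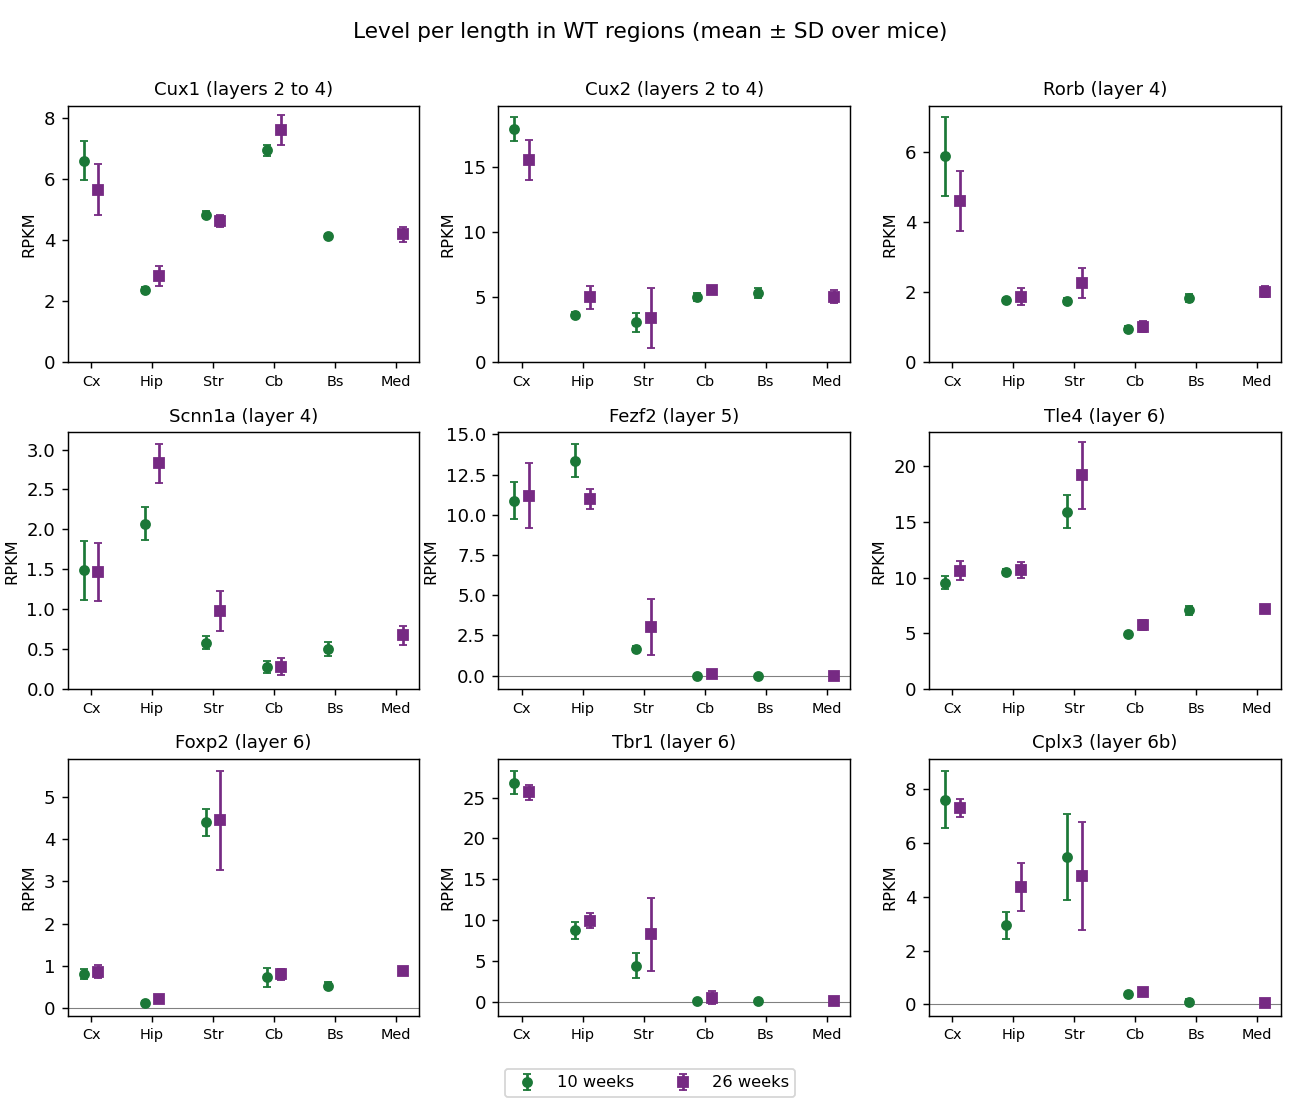
Level of each of the 9 genes in WT mice by brain region, in RPKM on an axis of its own per gene (points: mean, error bars: SD over 4 mice, 3 for the 26-week cortex; green, 10 weeks; purple, 26 weeks; Cx, cortex; Hip, hippocampus; Str, striatum; Cb, cerebellum; Bs, brainstem; Med, medulla). Cux2, Rorb and Tbr1 stand highest in cortex, Tle4 and Foxp2 in striatum, Scnn1a in hippocampus and Cux1 in cerebellum.

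The promoters of 3 of the genes are printed as examples from genes that were lower together in 175Q cortex. They are the 250 bases before a RefSeq start site, from the start-site windows of RefSeq on GRCm38.p6, written 5′ to 3′ on the gene's strand with CG dinucleotides in capitals. Cplx3 (chr9:57606282-57606531, minus strand) marks layer 6b and changed most at 26 weeks, Tbr1 (chr2:61804203-61804452, plus strand) marks layer 6, and Cux2 (chr5:122049852-122050101, minus strand) marks the upper layers.
Cplx3: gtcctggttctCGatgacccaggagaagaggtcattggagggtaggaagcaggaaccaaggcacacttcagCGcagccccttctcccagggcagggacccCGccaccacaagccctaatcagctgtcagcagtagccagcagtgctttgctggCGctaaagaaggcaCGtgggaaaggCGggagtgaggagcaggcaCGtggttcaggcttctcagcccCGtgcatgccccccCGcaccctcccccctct
Tbr1: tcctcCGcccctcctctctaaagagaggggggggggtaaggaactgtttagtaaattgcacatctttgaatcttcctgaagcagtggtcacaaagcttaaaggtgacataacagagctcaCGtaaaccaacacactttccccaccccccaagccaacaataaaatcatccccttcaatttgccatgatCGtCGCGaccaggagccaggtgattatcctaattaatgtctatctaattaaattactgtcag
Cux2: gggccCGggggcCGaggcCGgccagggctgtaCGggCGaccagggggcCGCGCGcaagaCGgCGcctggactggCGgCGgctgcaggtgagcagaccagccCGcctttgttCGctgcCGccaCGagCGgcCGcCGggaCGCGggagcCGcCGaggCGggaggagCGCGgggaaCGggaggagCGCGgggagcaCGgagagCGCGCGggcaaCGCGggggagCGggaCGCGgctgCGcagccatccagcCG
The Cux2 window held 40 CG dinucleotides, the Cplx3 window 9 and the Tbr1 window 5, where the median over 32851 RefSeq windows was 6 with quartiles of 2 and 16. Cux2 has another RefSeq window, not printed (chr5:122047826-122048075), which held 3. Rorb and Tle4 also have more than 1 window, with 18 and 4 CG dinucleotides for Rorb and 24 and 35 for Tle4, so the number depends on the start site taken. The Cplx3 window lies directly upstream of the annotated gene, whereas the Tbr1 and Cux2 windows lie inside the gene spans of the Ensembl annotation, which reach farther upstream. The octamers TGAATGAA, TGAATGGA, TCAATGAA and TCAATGGA, which Capicua is known to bind, were searched on both strands in windows of 300 bases (250 before and 50 after a start). None of the 10 windows of the 7 genes with an entry (Cux1, Cux2, Rorb, Fezf2, Tle4, Tbr1 and Cplx3) held one, and 3.84% of all 32851 windows did. Scnn1a and Foxp2 had no entry.

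At 10 weeks, 7 of the 9 genes were lower in 175Q cortex than in WT cortex and none was higher: Cux1 and Cux2 of the upper layers, Rorb and Scnn1a of layer 4, Fezf2 of layer 5, Tbr1 of layer 6 and Cplx3 of layer 6b. Tle4 and Foxp2, the other layer 6 genes, were not called. Among all 20748 genes tested, 19.7% were called lower and 38.2% were called in either direction. The median log2 fold change was -0.47 over the 9 genes and -0.0042 over all genes tested. In bulk tissue, fewer cells of a type and less RNA per cell cannot be told apart, and this holds for every comparison that follows.

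Cux1 had 76.9, 89.3, 87.2 and 81.7 CPM in 175Q cortex, 83.6, 80.4, 93.8 and 90.03 CPM in 175QK772T cortex and 144, 120.3, 116 and 129 CPM in WT cortex at 10 weeks. All 8 mice with the expanded allele were below all 4 WT mice, and the 175Q and 175QK772T mice overlapped. Cux1 fell by 34.2% in 175Q cortex (log2 fold change -0.60 ± 0.07, SE; edgeR adjusted p = 1.74e-06). Cux2 had 125, 129.9, 128 and 117 CPM in 175Q cortex, 137, 128, 138 and 135 CPM in 175QK772T cortex and 175, 166, 167 and 186 CPM in WT cortex. Again no mouse with the expanded allele reached the lowest WT mouse, while the 175Q and 175QK772T mice overlapped. Cux2 thus had a log2 fold change in 175Q of -0.47 ± 0.04 (edgeR adjusted p = 1.72e-07).

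Both layer 4 genes were lower. Rorb had 39.1, 48.9, 41.5 and 42.8 CPM in 175Q cortex, 45.5, 48.7, 51.8 and 43.9 CPM in 175QK772T cortex and 74.5, 50.8, 53.6 and 71.6 CPM in WT cortex. The 175Q values were below all WT values, with the highest 175Q mouse close to the lowest WT mouse, and 1 of the 4 175QK772T mice lay inside the WT range. In 175Q the log2 fold change was -0.54 ± 0.10 (edgeR adjusted p = 4.91e-04). Scnn1a, with only 156 to 603 counts per library at this age, had 1.99, 3.199, 2.76 and 2.81 CPM in 175Q cortex, 2.39, 3.34, 3.96 and 3.93 CPM in 175QK772T cortex and 7.39, 4.299, 5.02 and 6.93 CPM in WT cortex. All 8 mice with the expanded allele were below the WT mice, and the WT mice themselves spread widely. Scnn1a fell by 54.4% in 175Q cortex (log2 fold change -1.13 ± 0.19; edgeR adjusted p = 1.63e-04). The WT mice high in Rorb, replicates 1 and 4, were also the WT mice high in Scnn1a.

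The deep-layer genes split at this age. Cplx3 had 10.2, 10.5, 10.6 and 11.6 CPM in 175Q cortex, 14.1, 15.2, 11.4 and 11.6 CPM in 175QK772T cortex and 18.3, 20.6, 25.5 and 22.2 CPM in WT cortex. The WT mice lay above all others, and the 175Q mice lay close together. In 175Q the log2 fold change was -1.02 ± 0.10 (edgeR adjusted p = 5.39e-07), a fall of 50.5%. Tbr1 had 109, 107, 117 and 119 CPM in 175Q cortex, 116, 122, 108 and 111 CPM in 175QK772T cortex and 135, 141, 138 and 153 CPM in WT cortex. The groups with the expanded allele overlapped each other and lay below WT, with a log2 fold change of -0.32 ± 0.04 in 175Q (edgeR adjusted p = 1.69e-05).

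Fezf2 had 27.4, 26.1, 26.7 and 25.1 CPM in 175Q cortex, 27, 26.04, 22.9 and 26.4 CPM in 175QK772T cortex and 29.7, 32.5, 36.3 and 29 CPM in WT cortex. Both mutant groups lay below the lowest WT mouse, and the log2 fold change in 175Q was small, -0.28 ± 0.07 (edgeR adjusted p = 0.00352). Tle4 averaged 50.4 ± 3.18 CPM in 175Q cortex, 47.8 ± 3.24 in 175QK772T cortex and 52.3 ± 3.06 in WT cortex (SD, n = 4 each), and Foxp2 averaged 11.8 ± 0.362 CPM in 175Q cortex, 12.5 ± 1.402 in 175QK772T cortex and 12.5 ± 1.87 in WT cortex. All 3 genotypes overlapped for both genes. The log2 fold changes in 175Q were -0.05 ± 0.06 for Tle4 (edgeR adjusted p = 0.496) and -0.09 ± 0.09 for Foxp2 (edgeR adjusted p = 0.459), with 95% intervals of -10.8% to 4.05% and -16.3% to 5.75%.

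**Figure D2:**
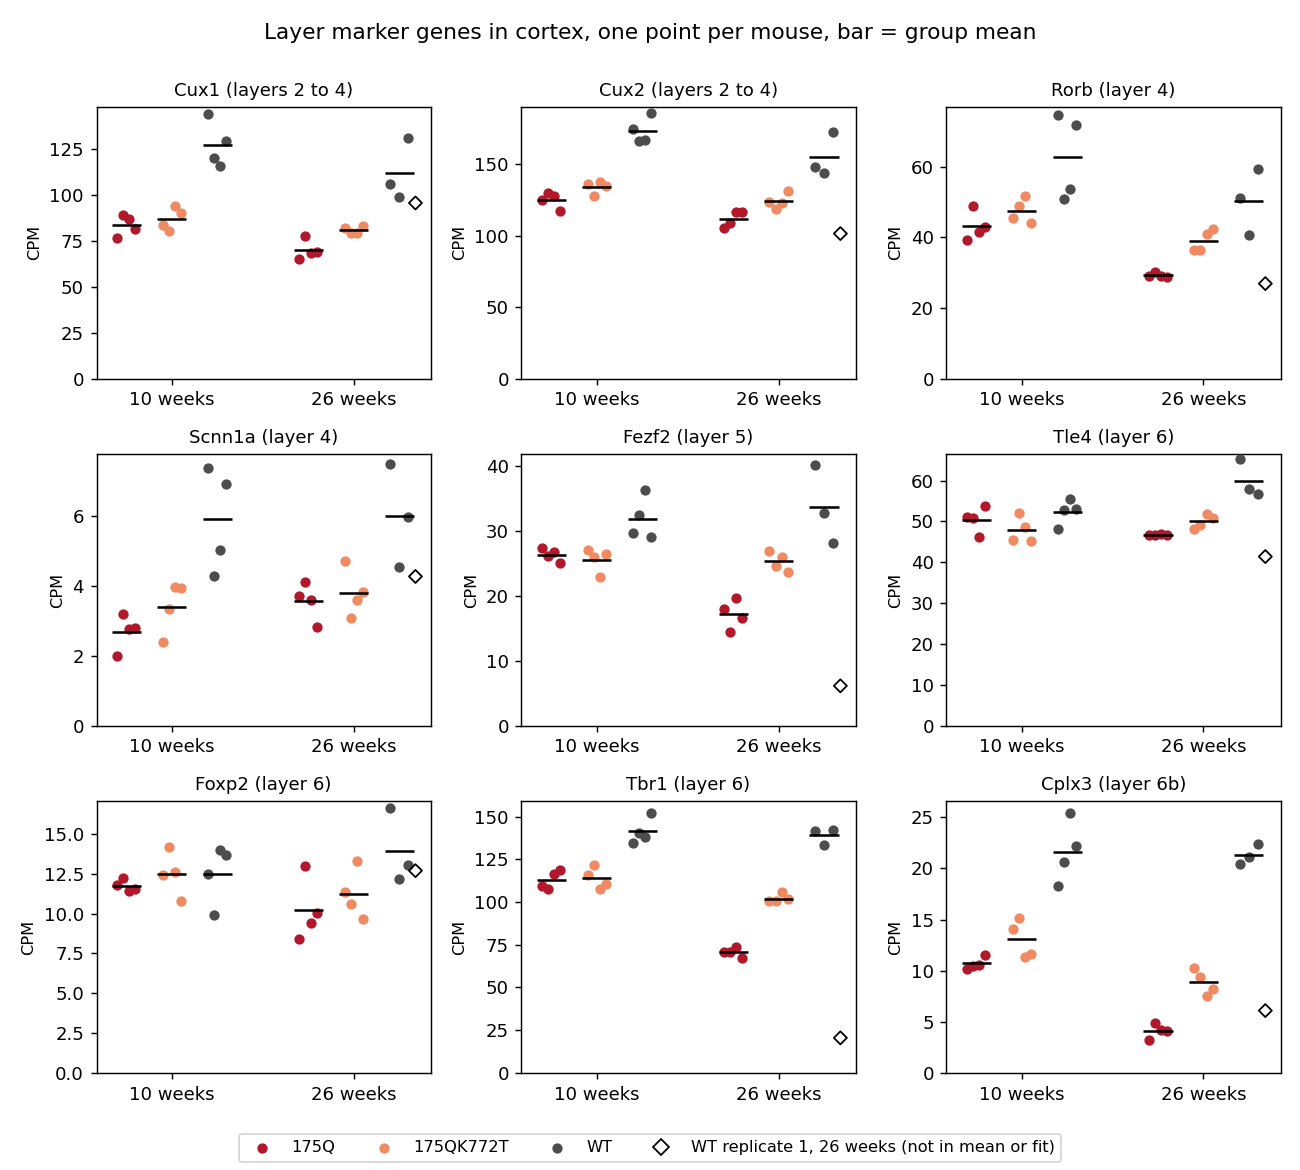
CPM of each of the 9 genes in every cortex library at 10 and 26 weeks by genotype (175Q, 175QK772T, WT; points: 1 mouse each, bars: group means, open diamond: the WT library left out at 26 weeks, not in the mean). Cplx3 in 175Q cortex sits between 10.2 and 11.6 CPM at 10 weeks and between 3.17 and 4.87 CPM at 26 weeks, below every WT mouse of its age, while Foxp2 overlaps between the genotypes at both ages.

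In 175QK772T cortex at 10 weeks, the same 7 genes (Cux1, Cux2, Rorb, Scnn1a, Fezf2, Tbr1 and Cplx3) were lower than in WT and none was higher (14% of all genes tested were called lower and 25.9% in either direction), with a median over the 9 genes of -0.37 against 0.0032 over all genes tested. The log2 fold changes were -0.55 ± 0.07 for Cux1, -0.37 ± 0.04 for Cux2, -0.42 ± 0.10 for Rorb and -0.78 ± 0.19 for Scnn1a. In the deep layers they were -0.32 ± 0.07 for Fezf2, -0.29 ± 0.05 for Tbr1 and -0.74 ± 0.10 for Cplx3, with edgeR adjusted p between 6.12e-06 and 0.00617 for the 7 genes. Tle4 (-0.14 ± 0.06; edgeR adjusted p = 0.0948) and Foxp2 (-0.04 ± 0.09; edgeR adjusted p = 0.788) were not called. Both contrasts share the same 4 WT mice.

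Set directly against 175Q at 10 weeks, 175QK772T cortex had none of the 9 genes called, and 1.05% of all genes tested were called. At an unadjusted p below 0.05, Cux2 (log2 fold change 0.10 ± 0.04) and Cplx3 (0.28 ± 0.10) were higher in 175QK772T, with 95% intervals of 1.12% to 13.9% and 5.21% to 39.9%, and DESeq2 called 0 of the 9. The intervals of the other 7 genes ran from -12.8% to 2.07% for Tle4 at the low end to -2.52% to 66.5% for Scnn1a at the high end.

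At 26 weeks all 9 genes were lower in 175Q cortex than in WT cortex (4 mice against 3), where 22.4% of all 20239 genes tested were called lower and 44.8% were called in either direction. The median log2 fold change was -0.70 over the 9 genes and 0.0123 over all genes tested. Scaled by total counts alone, the median of all genes tested was 0.13 higher and the 9 fold changes were higher by about as much: 8 of the 9 were then still called, and Foxp2 (-0.29) was not. With the left-out WT library included, 5 of the 9 were called, and Cux2 (log2 fold change -0.33), Fezf2 (-0.61), Tle4 (-0.24) and Tbr1 (-0.59) were not. The shares of 22.4% and 44.8% belong to the fit without that library, and the share with it is not given here.

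Cplx3 fell furthest. It had 3.17, 4.87, 4.21 and 4.13 CPM in 175Q cortex, 10.3, 9.37, 7.55 and 8.23 CPM in 175QK772T cortex and 20.5, 21.1 and 22.4 CPM in WT cortex. The 3 genotypes did not overlap, and the 175QK772T mice lay between the other groups. In 175Q the log2 fold change was -2.40 ± 0.12 (edgeR adjusted p = 1.93e-11), a fall of 81.1%. It was -1.30 ± 0.11 in 175QK772T against WT and 1.10 ± 0.11 in 175QK772T against 175Q (edgeR adjusted p = 1.33e-07 and 2.83e-06).

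Tbr1 had 70.6, 70.7, 73.9 and 67.2 CPM in 175Q cortex, 100.4, 100.4, 106 and 102 CPM in 175QK772T cortex and 142, 134 and 142 CPM in WT cortex. The genotypes formed separate and narrow ranges. Tbr1 fell by 49.02% in 175Q (log2 fold change -0.97 ± 0.05; edgeR adjusted p = 1.92e-11) and by 26.3% in 175QK772T (-0.44 ± 0.05; edgeR adjusted p = 1.77e-06). The direct log2 fold change of 175QK772T against 175Q was 0.53 ± 0.04 (edgeR adjusted p = 2.67e-07). Fezf2 had 18.04, 14.5, 19.6 and 16.6 CPM in 175Q cortex, 26.96, 24.7, 25.9 and 23.7 CPM in 175QK772T cortex and 40.1, 32.8 and 28.2 CPM in WT cortex. These ranges were separate too, with the highest 175QK772T mouse near the lowest WT mouse. The log2 fold change was -0.98 ± 0.11 in 175Q against WT (edgeR adjusted p = 6.05e-07), -0.43 ± 0.10 in 175QK772T against WT (edgeR adjusted p = 0.00607; 0.0504 without WT replicate 2) and 0.56 ± 0.10 in 175QK772T against 175Q (edgeR adjusted p = 6.04e-04).

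Tle4 and Foxp2, which were not called at 10 weeks, were lower in 175Q at 26 weeks. Tle4 had 46.6, 46.7, 47.03 and 46.6 CPM in 175Q cortex, 48.2, 49.2, 51.8 and 50.8 CPM in 175QK772T cortex and 65.3, 57.8 and 56.7 CPM in WT cortex. No genotype overlapped another, though the distances were small, with log2 fold changes of -0.35 ± 0.05 in 175Q and -0.25 ± 0.05 in 175QK772T against WT (edgeR adjusted p = 4.00e-05 and 0.00216) and 0.10 ± 0.05 between them (edgeR adjusted p = 0.183). Foxp2 had 8.41, 13.01, 9.42 and 10.1 CPM in 175Q cortex, 11.4, 10.6, 13.3 and 9.695 CPM in 175QK772T cortex and 16.7, 12.2 and 13.1 CPM in WT cortex. Its groups overlapped, and it was the least certain of the 9: the log2 fold change in 175Q was -0.42 ± 0.13 (edgeR adjusted p = 0.016), with adjusted p of 0.0676 without 175Q replicate 1 and 0.102 without WT replicate 2. In 175QK772T it was -0.29 ± 0.13 (edgeR adjusted p = 0.144).

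Among the upper-layer genes, Cux1 had 65.2, 77.7, 68.7 and 69.04 CPM in 175Q cortex, 82.1, 79.6, 79.2 and 83.1 CPM in 175QK772T cortex and 106, 99.2 and 131 CPM in WT cortex. Each genotype kept to its own range, with 175QK772T just above 175Q. Its log2 fold change was -0.66 ± 0.07 in 175Q and -0.45 ± 0.08 in 175QK772T against WT (edgeR adjusted p = 1.22e-06 and 2.22e-04). Between 175QK772T and 175Q it was 0.21 ± 0.07 (edgeR adjusted p = 0.0398), a call that was lost without 6 of the 11 libraries in turn (175Q replicates 1, 3 and 4 and 175QK772T replicates 1, 2 and 4; adjusted p up to 0.1195). Cux2 had 106, 109, 117 and 116 CPM in 175Q cortex, 124, 119, 123 and 131 CPM in 175QK772T cortex and 148, 144 and 173 CPM in WT cortex. The order of the genotypes was the same as for Cux1, with log2 fold changes of -0.46 ± 0.06 in 175Q and -0.31 ± 0.06 in 175QK772T against WT (edgeR adjusted p = 9.13e-06 and 0.0012). Between 175QK772T and 175Q the difference of 0.15 ± 0.06 was not called (edgeR adjusted p = 0.0705; by DESeq2 0.0345).

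Of the layer 4 genes, Rorb had 29.02, 30.3, 29.1 and 28.8 CPM in 175Q cortex, 36.4, 36.3, 40.9 and 42.2 CPM in 175QK772T cortex and 51.04, 40.7 and 59.3 CPM in WT cortex. The 175Q mice lay closely together below all others, and 175QK772T overlapped with the lowest WT mouse. Rorb had a log2 fold change of -0.74 ± 0.07 in 175Q against WT, -0.33 ± 0.07 in 175QK772T against WT and 0.41 ± 0.07 in 175QK772T against 175Q (edgeR adjusted p = 2.05e-07, 0.00248 and 3.30e-04). Scnn1a had 3.71, 4.12, 3.59 and 2.84 CPM in 175Q cortex, 4.72, 3.09, 3.61 and 3.83 CPM in 175QK772T cortex and 7.504, 4.56 and 5.97 CPM in WT cortex. The mutant groups overlapped each other, and the highest 175QK772T mouse exceeded the lowest WT mouse. Its log2 fold change was -0.70 ± 0.16 in 175Q (edgeR adjusted p = 0.00179) and -0.62 ± 0.16 in 175QK772T (edgeR adjusted p = 0.0108; 0.0719 without WT replicate 2 and 0.0523 without 175QK772T replicate 3). Between the mutants it was 0.09 ± 0.16, with a 95% interval of -14.1% to 31.5%.

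Counted over the 9 genes at 26 weeks, 175QK772T cortex had 8 lower than WT, all but Foxp2, where 12.9% of all genes tested were called lower and 22.9% in either direction. Against 175Q it had 5 higher, Cux1, Rorb, Fezf2, Tbr1 and Cplx3, where 12.9% of all genes tested were called higher and 23.4% in either direction. The median over the 9 genes was -0.43 in 175QK772T against WT and 0.21 in 175QK772T against 175Q, where the medians over all genes tested were 0.0057 and -0.0053. With the left-out WT library included, 1 of the 9 genes was called in 175QK772T against WT (Cux1) and 0 in 175QK772T against 175Q. Far fewer of all genes were called with it as well, and the shares above belong to the fit without that library. The log2 fold changes in 175QK772T against WT were then -0.06 for Tbr1, -0.06 for Fezf2, -0.14 for Tle4, -0.17 for Rorb, -0.18 for Cux2, -0.53 for Scnn1a and -0.97 for Cplx3. Against 175Q, where that library enters neither group, they were 0.53 for Tbr1 (edgeR adjusted p = 0.496), 0.55 for Fezf2 and 1.11 for Cplx3.

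**Figure D3:**
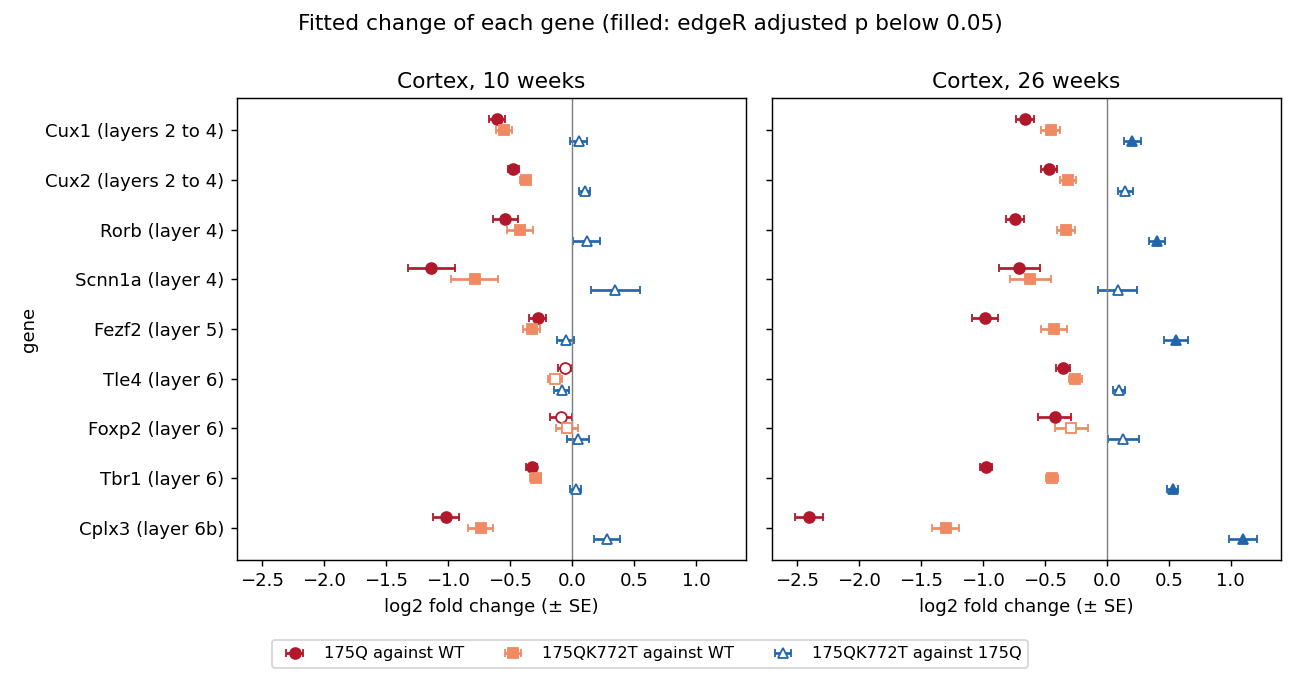
Log2 fold change in cortex of each of the 9 genes at 10 and 26 weeks for 175Q against WT, for 175QK772T against WT, and for the mutants against each other as 175QK772T against 175Q (points with SE; filled, edgeR adjusted p below 0.05; open, not called). At 10 weeks the 175QK772T against 175Q points are all open and run from -0.08 for Tle4 to 0.35 for Scnn1a. At 26 weeks Cplx3 reaches -2.40 in 175Q and -1.30 in 175QK772T against WT.

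Whether the 175Q effect itself changed with age was tested as the log2 fold change of 175Q against WT at 26 weeks minus that at 10 weeks, over all 23 cortex libraries. It was larger at 26 weeks for 4 of the 9 genes, all of the deep layers, where 9.46% of all genes tested were called in either direction. The change was -1.36 ± 0.16 for Cplx3 (edgeR adjusted p = 3.29e-06), -0.70 ± 0.13 for Fezf2 (0.00101), -0.64 ± 0.06 for Tbr1 (1.93e-07) and -0.29 ± 0.08 for Tle4 (0.0198; 0.0891 without WT replicate 2 of 26 weeks). For the upper-layer and layer 4 genes no change was called: it was -0.05 ± 0.11 for Cux1, 0.02 ± 0.08 for Cux2, -0.22 ± 0.16 for Rorb and 0.42 ± 0.27 for Scnn1a, with 95% intervals of the ratio from -16.8% to 11.7% for Cux1 and from -9.003% to 12.3% for Cux2. Foxp2 had -0.35 ± 0.18 (edgeR adjusted p = 0.261). These calls cover the 9 genes only and do not stand for whole layers. Among other genes of each layer, the median log2 fold change in 175Q was lower at 26 than at 10 weeks in every list. It was -0.32 and then -0.54 for upper-layer genes, -0.43 and -0.58 for layer 4 and -0.17 and -0.72 for layer 5. For layer 6 it was 0.23 and -0.10, and for layer 6b -0.23 and -1.08. The age change of those genes is not given here. In WT cortex Tbr1 averaged 142 ± 7.74 and 139 ± 4.85 CPM and Cplx3 21.6 ± 3.02 and 21.4 ± 0.992 CPM at 10 and 26 weeks (SD, n = 4 and 3). With the left-out WT library included, none of the 4 changes was called, at -1.07 for Cplx3, -0.35 for Fezf2, -0.28 for Tbr1 and -0.18 for Tle4. The share of 9.46% belongs to the fit without that library, and the share with it is not given here.

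Other genes with laminar expression, from lists drawn up for each layer, were counted beside the 9. In 175Q cortex at 10 weeks, 5 of 8 other upper-layer genes were lower and 2 higher, 3 of 4 layer 4 genes were lower, 6 of 12 layer 5 genes were lower and 1 higher, 1 of 7 layer 6 genes was lower and 2 higher, and 2 of 4 layer 6b genes were lower, where 19.7% of all genes tested were called lower and 38.2% in either direction. The list medians, in the same order, were -0.32, -0.43, -0.17, 0.23 and -0.23, against -0.0042 over all genes tested. At 26 weeks all 8 upper-layer, 4 layer 4, 12 layer 5 and 4 layer 6b genes were lower, where 22.4% of all genes tested were called lower and 44.8% in either direction. Their medians were -0.54, -0.58, -0.72 and -1.08, against 0.0123 over all genes tested. In the layer 6 list 2 of 7 were lower and 1 higher, with a median of -0.10. Of the layer 1 and Cajal-Retzius genes, 2 of the 3 tested were lower in 175Q at 10 weeks, and 2 of 4 were lower and 1 higher at 26 weeks.

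In the layer 4 list, Rspo1, a secreted activator of Wnt signalling, had a log2 fold change of -2.97 ± 0.10 in 175Q at 10 weeks and -2.64 ± 0.14 at 26 weeks, and Whrn, a scaffold protein, had -0.61 ± 0.07 and -0.71 ± 0.12. In the upper-layer list Wfs1, an endoplasmic reticulum membrane protein, had -0.96 ± 0.07 and -1.15 ± 0.07, Rasgrf2, a guanine nucleotide exchange factor, had -0.56 ± 0.05 and -0.61 ± 0.06, and Otof, a calcium sensor of vesicle release, had -0.85 ± 0.14 and -1.73 ± 0.12. In layer 5, Parm1 had -0.40 ± 0.04 and -0.98 ± 0.07, and Qrfpr, a neuropeptide receptor, had -1.58 ± 0.19 and -2.27 ± 0.22. In layer 6b, Ccn2, a secreted matrix-associated protein, had -0.75 ± 0.04 and -1.45 ± 0.10, and Moxd1 had -0.40 ± 0.08 and -1.08 ± 0.13. The layer 6 gene Ntsr1, the neurotensin receptor of corticothalamic neurons, went the other way, at 1.08 ± 0.09 and 0.95 ± 0.12, while Rprm had 0.62 ± 0.07 at 10 weeks and -0.20 ± 0.10, not called, at 26 weeks. Within layer 6 at 26 weeks Tbr1 and Ntsr1, markers of the same corticothalamic class, were lower and higher in the same 175Q libraries.

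In 175QK772T cortex against WT the list medians were -0.30, -0.31, -0.18, 0.13 and -0.21 at 10 weeks for upper-layer, layer 4, layer 5, layer 6 and layer 6b genes, with 5 of 8, 3 of 4, 5 of 12, 1 of 7 and 1 of 4 genes lower and 2 upper-layer genes (Pou3f2 and Mdga1) and 2 layer 6 genes (Rprm and Ntsr1) higher. Of all genes tested, 25.9% were called in either direction. At 26 weeks they were -0.18, -0.23, -0.47, -0.03 and -0.43, with 4 of 8, 3 of 4, 11 of 12, 0 of 7 and 2 of 4 genes lower and 1 higher, Ntsr1 of layer 6 (0.82 ± 0.12, edgeR adjusted p = 4.45e-05), where 22.9% of all genes tested were called in either direction. Against 175Q at 26 weeks, 7 of 8 upper-layer, 3 of 4 layer 4, 9 of 12 layer 5, 2 of 7 layer 6 and 4 of 4 layer 6b genes were higher in 175QK772T and none was lower. Of all genes tested, 12.9% were called higher and 23.4% in either direction, and the layer 6 count is near the latter share. The list medians were 0.38, 0.35, 0.31, 0.14 and 0.66, against -0.0053 over all genes tested. At 10 weeks 1 gene of the 5 lists was called between the mutants, where 1.05% of all genes tested were called.

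**Figure D4:**
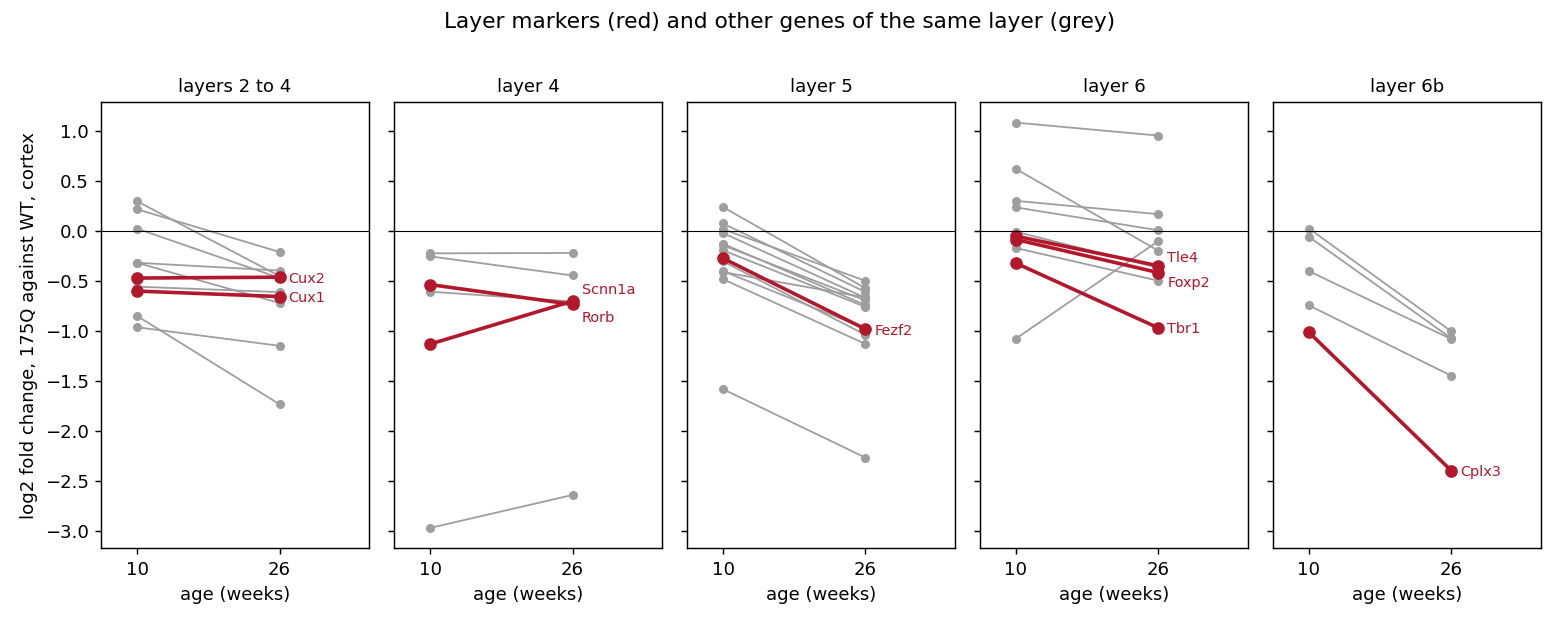
Log2 fold change of 175Q against WT in cortex (y axis) by age in weeks (x axis), with 1 panel per layer group and a line joining the points of 1 gene (red: the 9 genes; grey: other genes of that layer). Fezf2, Tbr1 and Cplx3 lie lower at 26 than at 10 weeks, Cux1 and Cux2 lie near the same value at both ages, and the highest grey line of layer 6 is Ntsr1 at 1.08 and 0.95.

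Genes of other cell types also differed between the cortices, where 38.2% of all genes tested were called in 175Q against WT at 10 weeks and 44.8% at 26 weeks. General markers of cortical excitatory neurons summed to 4147 to 4368 CPM in 175Q, 4460 to 4675 in 175QK772T and 6852 to 7143 in WT at 10 weeks, and to 2409 to 2762 CPM in 175Q, 3689 to 4058 in 175QK772T and 5795 to 6500 in WT at 26 weeks. Of these 8 genes, 4 were lower and 3 higher in 175Q at 10 weeks, and 6 were lower at 26 weeks. Their median log2 fold change was -0.15 at 10 weeks and -0.76 at 26 weeks, against -0.0042 and 0.0123 over all genes tested. Among the lower genes were Camk2a (log2 fold change -0.91 ± 0.03 and -1.50 ± 0.04), Nrgn (-0.73 ± 0.05 and -1.29 ± 0.07) and Slc17a7 (-0.34 ± 0.03 and -0.95 ± 0.05). The 3 genes higher at 10 weeks are not named here. GABAergic neuron genes were lower in 10 of 12 at both ages, with 1 and 2 higher. Astrocyte markers were lower in 12 of 12 at both ages, and summed to 4467 to 4712 CPM in 175Q, 5262 to 5802 in 175QK772T and 6304 to 6842 in WT at 10 weeks and 3991 to 4298 CPM in 175Q, 5042 to 5390 in 175QK772T and 6551 to 7237 in WT at 26 weeks. Oligodendrocyte markers were lower in 8 and 10 of 10, oligodendrocyte precursor markers in 5 and 4 of 5, microglia markers in 3 and 6 of 8, and endothelial markers in 7 and 4 of 8. The microglia count at 10 weeks and the endothelial count at 26 weeks are near the share of all genes called in either direction. Choroid plexus markers had 1 of 8 higher at each age (Sostdc1) and summed to 8.33 to 26.5 CPM in 175Q, 10.7 to 805.5 in 175QK772T and 5.18 to 20.2 in WT at 10 weeks, and to 10.99 to 657.9 CPM in 175Q, 9.84 to 107.3 in 175QK772T and 11.2 to 42.1 in WT at 26 weeks. The part that these other cell types had in the levels of the 9 genes was not tested. Without 175QK772T replicate 4 of 10 weeks, the library highest in Ttr, 7 of the 9 genes were still called lower in 175QK772T. Without 175Q replicate 1 of 26 weeks, also high in Ttr, 8 of the 9 genes were still called lower in 175Q, Foxp2 being the exception.

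Markers of neighbouring regions were measured as well, and their counts stand beside the same 38.2% and 44.8% of all genes tested. Of 9 striatal neuron markers 3 were lower and 1 higher in 175Q cortex at 10 weeks and 7 were lower at 26 weeks. Their sums were 214.9 to 234.4 CPM in 175Q, 200.8 to 238.5 in 175QK772T and 249.2 to 311.3 in WT at 10 weeks, and 141.3 to 156.8 CPM in 175Q, 161.9 to 189.7 in 175QK772T and 243.9 to 305.4 in WT at 26 weeks. Hippocampal field markers were lower in 175Q in 2 of 7 at 10 weeks, with 1 higher, and in 4 of 7 at 26 weeks, with 2 higher. The 4 of 9 striatal and 3 of 7 hippocampal markers called at 10 weeks are near the share of all genes. They summed to 22.2 to 28.01 CPM in 175Q, 20.8 to 25.5 in 175QK772T and 28.1 to 31.2 in WT at 10 weeks, and to 23.3 to 24.9 CPM in 175Q, 22.2 to 27.99 in 175QK772T and 32.8 to 35.3 in WT at 26 weeks. Of 6 thalamic markers tested, 3 were lower in 175Q at 10 weeks and 4 at 26 weeks, with 1 higher at each age. They summed to 51.3 to 60.1 CPM in 175Q, 51 to 62.6 in 175QK772T and 59.9 to 64.2 in WT at 10 weeks, and to 59.6 to 68.3 CPM in 175Q, 60.95 to 68.7 in 175QK772T and 64.3 to 69.4 in WT at 26 weeks. Their part in the cortical values of Tle4 and Foxp2, which are higher in striatum than in cortex, was not tested.

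Outside the cortex the 9 genes gave 67 tests per comparison over 8 sets of region and age, after the filter on low counts left out 5 of 72. In 175Q against WT, 19 were called lower and 1 higher, where 21.7% of all such gene tests were called in either direction. For 175QK772T and WT mice the counts were 8 lower and 1 higher (9.83% of all such tests were called), and between the mutants 3 were higher in 175QK772T (4.97%). That is 20 of 67 tests in 175Q, beside 16 of 18 in the cortex at both ages, where 38.2% and 44.8% of all genes tested were called. In 175Q striatum 3 of 9 were called at 10 weeks and 4 of 9 at 26 weeks, near the shares of all genes there (32.7% and 45.4%). In hippocampus 3 of 9 and 6 of 9 were called, where 19.6% and 40.8% of all genes were. In cerebellum at 10 weeks 1 of 8 was lower and 1 higher (11.4% of all genes called), and in medulla 2 of 7 were lower (18.5%). Brainstem at 10 weeks and cerebellum at 26 weeks had none. In 175Q against WT, only 2.93% and 3.01% of all genes tested in these sets were called.

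Cplx3 was lower in 175Q wherever it was called. In striatum at 26 weeks it had 1.02, 1.73, 2.75 and 0.772 CPM in 175Q, 2.797, 2.81, 6.21 and 0.818 in 175QK772T and 5.29, 17.9, 15.9 and 17.2 in WT mice. All 4 175Q mice were below the WT mice, and the 175QK772T mice overlapped with both groups. The log2 fold change was -3.13 ± 0.58 in 175Q and -2.17 ± 0.55 in 175QK772T against WT (edgeR adjusted p = 8.08e-04 and 0.0126). In striatum at 10 weeks it had 2.25, 2.08, 4.41 and 6.45 CPM in 175Q and 15.1, 17, 10.6 and 22 in WT mice, without overlap (-2.11 ± 0.44; edgeR adjusted p = 0.00264). In hippocampus at 26 weeks it had 2.65, 3.83, 4.49 and 2.66 CPM in 175Q, 4.96, 6.04, 6.39 and 3.86 in 175QK772T and 10.2, 11.4, 16.02 and 14.01 in WT mice, and the WT mice were above all others. There the log2 fold change was -1.90 ± 0.21 in 175Q and -1.27 ± 0.20 in 175QK772T (edgeR adjusted p = 6.00e-06 and 5.23e-04). Even in cerebellum at 10 weeks, where its level is low, Cplx3 had 0.382, 0.409, 0.398 and 0.408 CPM in 175Q and 1.02, 1.096, 1.31 and 1.06 in WT mice, with a log2 fold change of -1.47 ± 0.21 (edgeR adjusted p = 2.45e-04).

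Fezf2 was lower in 175Q in the hippocampus as in the cortex. At 10 weeks hippocampal Fezf2 had 26.1, 26.98, 32 and 26.3 CPM in 175Q, 34.6, 31.2, 23.9 and 32.6 in 175QK772T and 39.8, 37.8, 45.1 and 39.99 in WT mice. All mice with the expanded allele were below the WT mice, with log2 fold changes of -0.54 ± 0.10 in 175Q and -0.40 ± 0.10 in 175QK772T (edgeR adjusted p = 0.00263 and 0.0288; the second call was lost without 175QK772T replicates 2 or 4 or WT replicates 1 or 3 in turn, adjusted p up to 0.129). At 26 weeks it had 24.1, 19.4, 18.9 and 23.3 CPM in 175Q, 30.1, 25.3, 29.1 and 25.2 in 175QK772T and 36.2, 32.2, 33.1 and 32.4 in WT mice, in 3 separate ranges. The log2 fold change was -0.62 ± 0.09 in 175Q against WT (edgeR adjusted p = 5.83e-05), -0.28 ± 0.09 in 175QK772T against WT (0.0372; lost without 175QK772T replicates 2 or 4 or WT replicates 1, 2, 3 or 4 in turn, adjusted p up to 0.123) and 0.34 ± 0.09 in 175QK772T against 175Q (0.0173; lost without 175Q replicate 3 or 175QK772T replicates 1 or 3 in turn, adjusted p up to 0.0609). In striatum at 10 weeks its log2 fold change in 175Q was -1.01 ± 0.19 (edgeR adjusted p = 0.00137).

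The layer 6 genes that are most abundant in striatum were also lower there in 175Q at 26 weeks. Striatal Tle4 had 66.4, 66.02, 75.9 and 61.3 CPM in 175Q, 77.7, 78.7, 81.4 and 100.3 in 175QK772T and 109.5, 129, 87.5 and 112 in WT mice, and the 175Q values lay below all WT values. The log2 fold change was -0.68 ± 0.10 in 175Q and -0.37 ± 0.10 in 175QK772T (edgeR adjusted p = 1.64e-04 and 0.019; the second call was lost without 175QK772T replicates 1, 2 or 3 or WT replicates 1 or 2 in turn, adjusted p up to 0.0741). Striatal Foxp2 had 40.5, 42.1, 47.7 and 35.9 CPM in 175Q, 43.9, 43.04, 41.5 and 65.1 in 175QK772T and 88.8, 83.1, 45.6 and 73.4 in WT mice, with WT replicate 3 inside the range of the mutants. Its log2 fold change was -0.79 ± 0.19 in 175Q and -0.59 ± 0.18 in 175QK772T (edgeR adjusted p = 0.00394 and 0.0364; the second call was lost without 175Q replicate 2, 175QK772T replicates 1, 2 or 3 or WT replicates 1, 2 or 4 in turn, adjusted p up to 0.121). In medulla at 26 weeks Foxp2 had 8.27, 8.75, 8.88 and 9.04 CPM in 175Q, 11.8, 19.3, 13.02 and 14.9 in 175QK772T and 13.8, 15.1, 12.4 and 15.5 in WT mice. The 175Q mice lay below all others and the 175QK772T and WT mice overlapped, with log2 fold changes of -0.70 ± 0.13 in 175Q against WT and 0.77 ± 0.13 in 175QK772T against 175Q (edgeR adjusted p = 0.00173 and 0.00355).

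The remaining calls varied in size, and many were lost when 1 library was left out. Scnn1a, which is most abundant in hippocampus, had 7.01, 6.99, 7.87 and 4.74 CPM in 175Q, 7.68, 8.23, 10.1 and 7.65 in 175QK772T and 12.1, 12.5, 11.97 and 10.2 in WT hippocampus at 26 weeks. All 175Q and 175QK772T mice were below the WT mice, with log2 fold changes of -0.79 ± 0.14 and -0.46 ± 0.14 (edgeR adjusted p = 4.26e-04 and 0.0304; the second call was lost without 175QK772T replicates 1, 2 or 4 or WT replicates 1, 2 or 3 in turn, adjusted p up to 0.101). At 10 weeks the hippocampal change was -0.28 ± 0.09 in 175Q (edgeR adjusted p = 0.0495; lost without 175Q replicates 1, 2, 3 or 4, 175QK772T replicates 2 or 4 or WT replicates 1, 3 or 4 in turn, adjusted p up to 0.158). Tbr1 in hippocampus at 26 weeks had -0.34 ± 0.09 in 175Q against WT and 0.33 ± 0.09 in 175QK772T against 175Q (edgeR adjusted p = 0.00799 and 0.0268; the second call was lost without 175Q replicates 2 or 4 or 175QK772T replicates 1, 2 or 3 in turn, adjusted p up to 0.0833), and Tle4 there had -0.24 ± 0.05 in 175Q. Rorb was lower in 175Q in hippocampus at both ages (-0.30 ± 0.09 and -0.44 ± 0.12; the first call was lost without 175Q replicates 1 or 4 or WT replicates 2 or 4 in turn, adjusted p up to 0.0885), in 175QK772T hippocampus at 10 weeks (-0.31 ± 0.09; lost without 175Q replicates 1, 2 or 4, 175QK772T replicates 2, 3 or 4 or WT replicates 1, 2, 3 or 4 in turn, adjusted p up to 0.238), and in 175Q medulla and striatum at 26 weeks (-0.31 ± 0.09 and -0.74 ± 0.17; the first call was lost without 175Q replicates 1, 2 or 4 or WT replicates 3 or 4 in turn, adjusted p up to 0.0995). The calls towards higher values against WT were Tle4 in 175Q cerebellum (0.16 ± 0.05; lost without 175Q replicates 2, 3 or 4, 175QK772T replicates 1 or 2 or WT replicates 1, 2, 3 or 4 in turn, adjusted p up to 0.125) and Cux1 in 175QK772T cerebellum (0.12 ± 0.03; lost without 175Q replicates 1 or 2, 175QK772T replicates 1, 2 or 4 or WT replicates 1, 2, 3 or 4 in turn, adjusted p up to 0.108), both at 10 weeks.

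In striatum, Tbr1 and Cux2 varied widely between mice of 1 genotype. Striatal Tbr1 had 26.3, 13.7, 24.2 and 38.9 CPM in 175Q, 58.1, 64.3, 61.9 and 5.74 in 175QK772T and 15.1, 46.9, 74.4 and 44.1 in WT mice at 26 weeks. Striatal Cux2 had 55.95, 41.6, 45.1 and 75.6 CPM in 175Q, 56.5, 77.98, 58.4 and 29.97 in 175QK772T and 20.3, 19.2, 68.8 and 28.2 in WT mice. WT replicate 3 was the WT mouse highest in both genes and the lowest WT mouse in Tle4 and Foxp2, the genes most abundant in striatum, and 175QK772T replicate 4 was the lowest of its group in Tbr1 and Cux2 and the highest in Tle4 and Foxp2. At 10 weeks Tbr1 in striatum had 6.204, 7.91, 11.2 and 13.7 CPM in 175Q and 25.5, 21.2, 15 and 34.8 in WT mice, a log2 fold change of -1.29 ± 0.42 (edgeR adjusted p = 0.0309; lost without 175Q replicates 1, 2 or 3 or WT replicates 1 or 4 in turn, adjusted p up to 0.115).

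Whether the effect of 175Q on these genes was larger in cortex was tested within mice against hippocampus and striatum, as the log2 fold change in cortex minus that in the other region. Cux1 was called against both regions at both ages: its fall was larger in cortex than in hippocampus by -0.51 ± 0.09 (edgeR adjusted p = 7.32e-04) at 10 weeks and -0.56 ± 0.11 (edgeR adjusted p = 0.00314) at 26 weeks. Against striatum the differences were -0.56 ± 0.09 (edgeR adjusted p = 1.06e-04) and -0.52 ± 0.11 (edgeR adjusted p = 0.00211). Scnn1a was the other gene called against hippocampus, at 10 weeks only, with -0.83 ± 0.21 (edgeR adjusted p = 0.0113). That call was lost without 175Q mouse 1 (0.0579) or WT mouse 1 (0.0556). At 10 weeks 2 of the 9 genes were called against hippocampus, where 8.86% of all genes tested were, and at 26 weeks 1, where 4.24% were.

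Against striatum, 4 of the 9 genes were called at 10 weeks (15.8% of all genes tested) and 2 at 26 weeks (12.2%). At 10 weeks these were Cux1, Scnn1a with -1.47 ± 0.21 (edgeR adjusted p = 2.63e-05), Cux2 with -0.71 ± 0.20 (edgeR adjusted p = 0.0132) and Fezf2 with 0.77 ± 0.21 (edgeR adjusted p = 0.0145), the last meaning a smaller fall in cortex than in striatum. The Cux2 call was lost without WT mouse 3 (adjusted p = 0.052), and the Fezf2 call without 175Q mouse 1 or 2 or WT mouse 1 or 4 (0.0547 to 0.0701). At 26 weeks they were Cux1 and Cux2, with a Cux2 difference of -1.18 ± 0.37 (edgeR adjusted p = 0.0362), a call that was lost without any 1 of 7 mice (175Q mice 1 and 4, 175QK772T mice 1 and 3, WT mice 1, 2 and 4; adjusted p up to 0.236). In striatum itself Cux2 was higher in 175Q than in WT, not called, by 0.25 ± 0.15 at 10 weeks and 0.75 ± 0.34 at 26 weeks (edgeR adjusted p = 0.247 and 0.0916). Striatal Scnn1a at 10 weeks was higher by 0.38 ± 0.15, also not called (edgeR adjusted p = 0.0739). These differences thus join a fall in cortex with an uncalled rise in striatum. For Tbr1 and Cplx3 no difference between cortex and the other regions was called at either age, and their standard errors there were 0.36 to 0.64.

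By likeness of pattern over the 23 cortex libraries (Pearson r of log2 CPM minus the mean of its age, 13302 genes compared), the genes nearest to each of the 9 were as follows. Cux1 was nearest to Pde8b (r = 0.963) and Vamp1 (0.960), Cux2 to Plch2 (0.963) and Sptb (0.962), and Rorb to Zdhhc2 and Dcbld2 (both 0.933). Scnn1a was nearest to Rcan2 (0.912) and Kcnab3 (0.904), and Fezf2 to Syngr1 and Khdrbs3 (both 0.944). Tbr1 was nearest to Zdhhc14 (0.980) and Kbtbd11 (0.979), and Cplx3 to Sstr2 (0.978) and Fam163b (0.975). Tle4, nearest to Plcl2 (0.878) and Chrna4 (0.877), and Foxp2, nearest to Prr14l (0.773) and Far2 (0.763), had lower values. These r carry the genotype differences themselves and are a description of these libraries.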

How the data were processed

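RNA from brain regions was sequenced as paired ends. Per the submitters' processing notes, bcl2fastq 2.20.0, Trimmomatic 0.33, HISAT2 2.1.0, Subread 1.6.2 and featureCounts were used on GRCm38. The deposited values are the authors' whole-number counts of read pairs per gene, with the exon length of each gene in bases. Per the file headers, the 10-week table counted the reverse strand; the settings of the 26-week table are not given in the sources used here. Its labels call the expanded alleles 154Q and 154QKT in places, and the genotype field was followed. No sample column was left unmapped (0).

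CPM and RPKM were computed here with trimmed-mean (TMM) library sizes of the libraries fitted together, which differ between the cortex sets and the WT region sets. Genes passing filterByExpr were tested with edgeR 4.0.16 (R 4.3.3, limma 3.58.1), by the quasi-likelihood test with a sex term, or with the mouse as a block between regions. p-values were adjusted by Benjamini-Hochberg over all genes tested, at a threshold of 0.05, and a 95% interval is that of the fold change minus 1. DESeq2 1.42.0 served as an alternative. The fitting steps were tested on simulated data. Replicates are different mice. The members and lists were chosen with earlier results of these data known. All 9 members are named in cortex, elsewhere those called; of each other list, up to 4 genes of smallest adjusted p among those called in 175Q cortex at 10 weeks; Pou3f2 and Mdga1 were named after their values were seen. The alternatives tried were other scalings, no filter on low counts, no sex term, a replicate block, the left-out WT cortex library and leaving out each library.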

Additional observations from a re-analysis of the deposited data

Results flagged for a closer look

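A difference between groups in the effect of 175Q was called for 13 results, all by an edgeR test of the difference itself. By age, the log2 fold change of 175Q against WT in cortex was lower at 26 than at 10 weeks by -1.36 for Cplx3, -0.70 for Fezf2, -0.64 for Tbr1 and -0.29 for Tle4, and age cannot be told apart from the sequencing batch. By region, the effect in cortex minus that in hippocampus was -0.51 for Cux1 and -0.83 for Scnn1a at 10 weeks and -0.56 for Cux1 at 26 weeks. The effect in cortex minus that in striatum at 10 weeks was -0.56 for Cux1, -0.71 for Cux2, -1.47 for Scnn1a and 0.77 for Fezf2. At 26 weeks it was -0.52 for Cux1 and -1.18 for Cux2, beside a spread of striatal Cux2 of 41.6 to 75.6 CPM in 175Q and 19.2 to 68.8 CPM in WT mice. The Cux2 differences and the 10-week Scnn1a difference from striatum include uncalled rises in 175Q striatum beside the falls in cortex.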

How the results depend on the processing

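Most results kept their direction and their side of the threshold: 345 of the recomputed counts stayed within 1.5 times and 41 did not, and of the single-gene values 1643 stayed, 153 lost a call, 10 gained one and 9 changed sign. With the left-out 26-week WT cortex library, the members called were 5 (175Q against WT), 1 (175QK772T against WT), 0 (175QK772T against 175Q) and 0 (age change). All genes called then were 1756 against 4641 in 175QK772T against WT, and 688 against 4738 in 175QK772T against 175Q. Without a filter on low counts, 1 member (Cplx3) was called at 10 weeks in 175QK772T against 175Q. Over the 8 other sets, 15 calls were then made in 175QK772T against WT and 16 in 175QK772T against 175Q, where DESeq2 made 9 and RLE scaling 5. Changes of sign, all of uncalled values at 10 weeks except the last, were Tle4 in 175Q by total counts (0.0182), Foxp2 in 175Q without WT replicate 4 (0.0045), Foxp2 in 175QK772T by total counts (0.0256), with no sex term (0.0012), without WT replicate 4 (0.0331) and without 175QK772T replicate 4 (0.0098). Against 175Q they were Fezf2 without 175QK772T replicate 3 (7e-04), Tbr1 without 175QK772T replicate 2 (-0.0023) and, at 26 weeks, Scnn1a without 175QK772T replicate 1 (-0.0851). The cause was not tested. Over all libraries left out in turn, these values ran from -0.1729 to 0.0045 (Foxp2 in 175Q), -0.1081 to 0.0331 (Foxp2 in 175QK772T), -0.0919 to 7e-04 (Fezf2), -0.0023 to 0.0822 (Tbr1) and -0.0851 to 0.1588 (Scnn1a).

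Leaving out 1 library in turn gave 7 to 7, 7 to 8 and 0 to 0 members called at 10 weeks and 8 to 9, 6 to 8 and 4 to 6 at 26 weeks for 175Q and for 175QK772T against WT and for 175QK772T against 175Q. It gave 3 to 4 for the age change, 1 to 2 and 3 to 5 for cortex minus hippocampus and striatum at 10 weeks, and 1 to 1 and 1 to 4 at 26 weeks. Over the 8 other sets it gave 17 to 23, 2 to 9 and 2 to 10 calls, and in WT regions 28 to 29 and 21 to 27. All genes called in 175QK772T against 175Q at 10 weeks ran from 34 to 255, against 217.

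By total counts, calls shifted towards higher values: 65.7% of calls against 48.5% were higher in 175Q and 68.4% against 45.8% in 175QK772T at 10 weeks, and 69.5% against 50.1% and 67.2% against 43.6% at 26 weeks. For 175QK772T against 175Q the share was 62.4% (DESeq2 60.1%) against 72.4% at 10 weeks and 35.6% against 54.9% at 26 weeks. Deviations of same-numbered mice had r of -0.202 to 0.246 in 12 pairs at 10 weeks and -0.245 to 0.15 in 10 pairs at 26 weeks. Of these, 4 and 2 pairs had r above 0.1. The pairs of replicate 4 at 10 weeks were all positive (0.19, 0.184 and 0.246). Such values cannot show whether the numbers carry a pairing. With a replicate block, members called in cortex were 7, 8 and 0 at 10 weeks and 9, 8 and 6 at 26 weeks, 4 changed with age, and the 8 other sets gave 18, 5 and 6 calls; all genes called in 175QK772T against 175Q at 10 weeks were 50, by DESeq2 789 and without a filter on low counts 938, against 217.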
